A study of Homo sapiens with 12 samples.

Results

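Interferon response genes are a set of 39 human genes that cells switch on when they sense type I interferon, and they were followed here through 3 leukaemia cell lines with and without a mutation of the U1 small nuclear RNA. The set was a fixed list of symbols, each matched to its Ensembl identifier in the gene table, and all 39 were found among 57820 genes (0.0675% of the table). Every one of the 39 also passed the filter on low counts that left 21270 genes for testing. The lines were JVM3, HG3 and MEC1, labelled chronic lymphocytic leukaemia, which arises from mature B cells. In each line the mutant group carried U1 g.3A>C and was set against the same line labelled wild type for U1, and no other treatment, agent or allele is given for any of the 6 groups. Each group had 2 technical replicates, so there were 12 libraries of stranded total RNA depleted of ribosomal RNA. The sources used here do not say how the mutant U1 was brought into the cells or whether each group was 1 clone. The replicates are technical, so tests within a line measure only the spread between libraries of the same source, and only the comparison over the 3 lines has n = 3.

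Type I interferon binds the receptor pair IFNAR1 and IFNAR2, the kinases JAK1 and TYK2 phosphorylate STAT proteins such as STAT2, and STAT2 joins IRF9 in the complex ISGF3. ISGF3 binds the interferon-stimulated response element in the promoters of its target genes, and the products of those genes cut or bind viral RNA, block membrane fusion, attach the ubiquitin-like protein ISG15 to other proteins, or amplify the signal. RNA sensors such as the IFIH1 product can start the programme inside a cell by inducing the interferons.

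The promoters were searched for a motif that most of the set shares. RefSeq promoter windows (build GRCh38.p14, from 250 bases before to 50 bases after each transcript start) were held for 31 of the 39 genes. The core of the interferon-stimulated response element, searched as GAAA, any 2 bases and GAAA on both strands, was in 23 of these 31 genes (74.2%) and in 27 of their 41 windows (65.9%), against 3.57% of all 35116 windows. The core of the gamma-activated site, TTCNNNGAA, was in 10 of the 31 genes (32.3%) and 11 of the 41 windows (26.8%), against 7.66% of all windows. Overlaps between matches of the 2 motifs were not counted. The genes with a window and without the first core were CMPK2, HERC6, IFI35, IRF9, OAS1, SAMD9L, STAT2 and XAF1, and those without an entry were MX2, IRF7, IFIT2, USP18, OAS2, OASL, DHX58 and IFITM2. The search fixed the gap at 2 bases, so repeats with a shorter gap, as in the OAS1 window, were not counted. The 250 bases before the start are printed 5' to 3' on the gene's strand for 4 genes with the core and 2 without it, with the core matches in capitals. HERC5, ISG15, IFIT1 and IFI44L were chosen as genes that fell in both HG3 and MEC1 and have the core, while HERC6 and IRF9 are the 2 genes whose response did not pass a test of difference between lines. HERC6 and IRF9 also fell in both HG3 and MEC1.
ISG15: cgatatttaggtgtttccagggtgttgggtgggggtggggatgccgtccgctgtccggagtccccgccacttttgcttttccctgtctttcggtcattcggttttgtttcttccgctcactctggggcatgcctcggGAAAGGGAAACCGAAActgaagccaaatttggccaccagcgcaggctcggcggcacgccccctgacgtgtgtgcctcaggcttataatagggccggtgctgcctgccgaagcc
HERC5: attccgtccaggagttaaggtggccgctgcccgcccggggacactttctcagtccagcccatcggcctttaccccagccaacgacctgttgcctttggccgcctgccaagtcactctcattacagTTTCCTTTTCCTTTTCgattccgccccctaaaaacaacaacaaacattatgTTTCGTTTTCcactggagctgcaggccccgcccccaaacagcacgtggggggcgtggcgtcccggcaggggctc
IFIT1: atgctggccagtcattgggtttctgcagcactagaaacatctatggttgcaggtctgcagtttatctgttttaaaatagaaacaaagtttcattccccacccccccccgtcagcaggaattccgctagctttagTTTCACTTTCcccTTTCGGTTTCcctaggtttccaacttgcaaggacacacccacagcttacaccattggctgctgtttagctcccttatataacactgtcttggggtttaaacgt
IFI44L: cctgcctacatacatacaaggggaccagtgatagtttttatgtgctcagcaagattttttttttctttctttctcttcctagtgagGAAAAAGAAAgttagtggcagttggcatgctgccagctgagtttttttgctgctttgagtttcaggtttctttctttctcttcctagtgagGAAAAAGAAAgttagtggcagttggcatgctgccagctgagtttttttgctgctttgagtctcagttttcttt
HERC6: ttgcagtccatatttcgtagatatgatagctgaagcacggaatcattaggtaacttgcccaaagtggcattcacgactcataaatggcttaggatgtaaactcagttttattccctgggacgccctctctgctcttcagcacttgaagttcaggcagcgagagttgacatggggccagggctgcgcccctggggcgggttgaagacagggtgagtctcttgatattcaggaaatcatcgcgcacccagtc
IRF9: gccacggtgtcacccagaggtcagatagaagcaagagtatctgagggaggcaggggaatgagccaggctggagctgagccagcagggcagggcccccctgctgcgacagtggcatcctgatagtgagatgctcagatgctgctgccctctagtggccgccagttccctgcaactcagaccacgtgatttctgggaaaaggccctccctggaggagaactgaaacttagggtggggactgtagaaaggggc
The ISG15 window is chr1:1013247-1013496 on the plus strand, and its 2 overlapping matches end 97 bases before the start. The HERC5 window is chr4:88456869-88457118 on the plus strand, and its 3 matches form stretches that end 109 and 64 bases before the start. The IFIT1 window is chr10:89392373-89392622 on the plus strand, with matches that end 106 and 93 bases before the start. The IFI44L window is chr1:78620198-78620447 on the plus strand, with matches that end 154 and 63 bases before the start. The HERC6 window is chr4:88378602-88378851 and the IRF9 window is chr14:24161015-24161264, both on the plus strand. A match is a string of letters and shows no binding.

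The libraries held 29880079 to 39716818 counts assigned to genes, and levels are given as CPM, a gene's counts scaled to this total. RNU1-1, a U1 gene whose RNA cannot be split into mutant and wild-type sequence by these counts, stood at 54.2 CPM in mutant against 40.3 CPM in wild-type JVM3 (ratio 1.35), at 206 against 29.1 CPM in HG3 (7.09) and at 24.8 against 12.9 CPM in MEC1 (1.93). The 6 B cell markers MS4A1, CD79A, CD79B, PAX5, CD22 and BLNK were at 55.0 to 1354 CPM in every library. Markers of T cells, monocytes, natural killer cells, fibroblasts and red cells were at 0 to 4.96 CPM. Of the 2 plasmacytoid dendritic cell markers, LILRA4 was at 31.1 to 33.0 CPM in the 4 JVM3 libraries and at 0.469 to 2.04 CPM elsewhere, while CLEC4C was at 0.0527 to 0.809 CPM in all 12. Their part in the high interferon programme of JVM3 was not tested.

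Wild-type JVM3 cells carried the interferon programme at a much higher level than the other lines. Summed over the 39 genes, wild-type libraries held 3889 and 3893 CPM in HG3 and 4930 and 5083 CPM in MEC1, against 9784 and 9743 CPM in JVM3. All 39 genes were lower in wild-type HG3 than in wild-type JVM3 (edgeR adjusted p under 0.05, a call that 32.5% of all genes tested reached in that direction), with a median log2 difference of -1.92 against 0.00 over all genes. In wild-type MEC1, 35 of the 39 were lower than in wild-type JVM3 (37.9% of all genes), with a median of -1.53. In these comparisons 0 genes were higher in HG3 (30.9% of all genes) and 0 in MEC1 (33.9%) by edgeR, 0 at an unadjusted p under 0.05 and 0 by DESeq2. The exceptions in MEC1 were MX1, IRF7, IFI44L and RSAD2, whose log2 differences ran from -0.09 to 0.04. JVM3 was the line with the highest wild-type level for 34 genes and MEC1 for 5, while HG3 was highest for none and lowest for 22.

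Single genes showed how wide the gap was. ISG15, the ubiquitin-like modifier, had 75.0 and 72.4 CPM in wild-type HG3 and 153 and 145 CPM in wild-type MEC1, against 541 and 520 CPM in wild-type JVM3. IFI27, a mitochondrial protein gene much used as an interferon marker, had 2.32 and 2.16 CPM in wild-type HG3 and 8.83 and 8.64 CPM in wild-type MEC1, against 190 and 191 CPM in wild-type JVM3. The 3 lines did not overlap for either gene. OASL, an OAS relative without the usual enzyme activity, was lower in HG3 by 4.15 and in MEC1 by 3.72 log2 units. MX1, the antiviral GTPase, differed least, with 551 and 538 CPM in wild-type HG3 and 819 and 823 CPM in wild-type MEC1, against 709 and 709 CPM in wild-type JVM3. The unit hides gene length. Per kilobase of exon, ISG15 led the wild-type levels in JVM3 with 564 CPM per kb, IFITM1 in MEC1 with 275 and BST2 in HG3 with 148.

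HG3 and MEC1 were not alike in which genes they kept. Between the wild-type cells of these lines 19 of the 39 genes were higher in MEC1 (32.1% of all genes) and 17 lower (35.3%), with a median of -0.01. IFIT2, which binds viral RNA, had 20.5 and 20.9 CPM in wild-type MEC1 against 121 and 124 CPM in wild-type HG3, a log2 difference of -2.66. IFI44L, of uncertain function, had 678 and 748 CPM in wild-type MEC1 against 119 and 124 CPM in wild-type HG3, a log2 difference of 2.47. In both genes the libraries of the 2 lines lay far apart, in opposite directions.

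CMPK2, a mitochondrial nucleotide kinase gene, had no read in any of the 4 HG3 libraries, which allows at most 0.0459 CPM in mutant and 0.0455 CPM in wild-type cells at 3 counts per group. It was at 47.2 and 46.8 CPM in wild-type JVM3 and 31.3 and 33.4 CPM in wild-type MEC1, so it was at least 1030-fold lower in wild-type HG3 than in JVM3 and at least 708-fold lower than in MEC1. RSAD2 (viperin), its neighbour on chromosome 2, was also nearly silent in HG3, with 6 counts in mutant and 9 in wild-type cells, a ratio of 0.672 whose exact 95% interval ran from 0.197 to 2.11. Both genes of the pair were expressed in JVM3 and MEC1, where wild-type RSAD2 lay at 16.2 to 18.1 CPM.

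**Figure D1:**
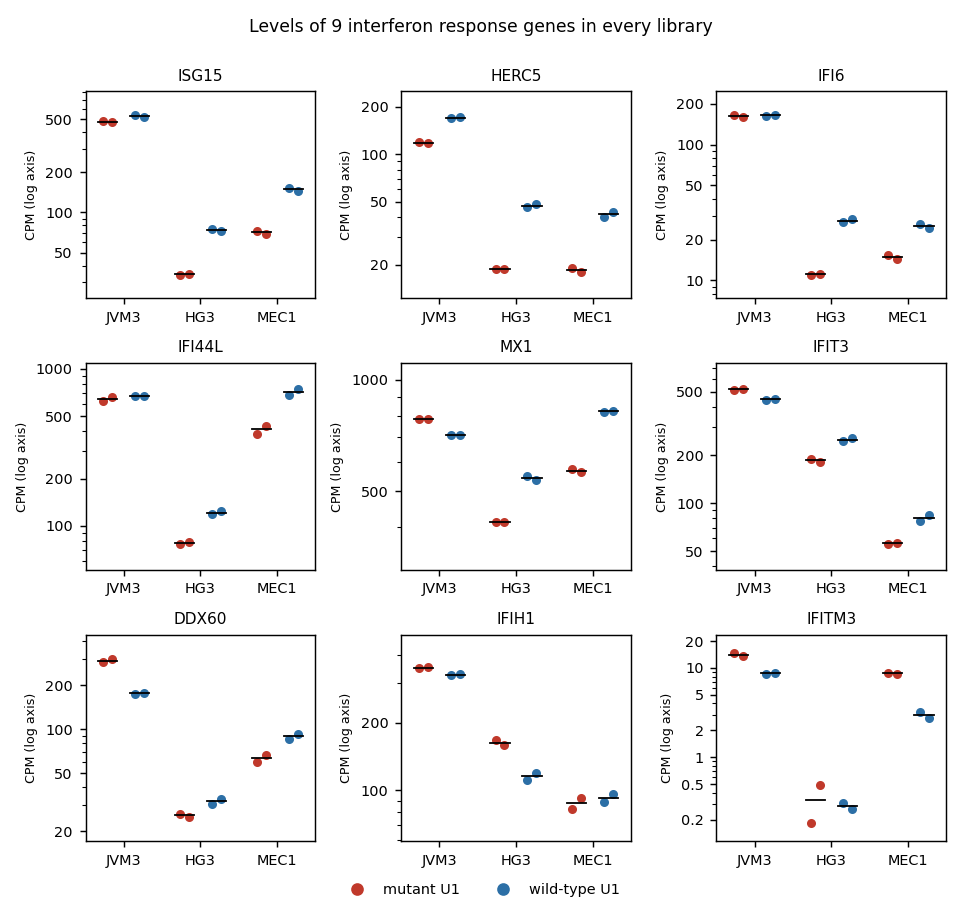
Levels of 9 genes in CPM (vertical axes, logarithmic) in every library, with mutant U1 libraries in red left of wild-type U1 libraries in blue for each line and a black line at each mean of 2 technical replicates. ISG15 stands at 34.1 to 34.6 CPM in mutant HG3 against 72.4 to 75.0 in wild-type HG3, while IFITM3 and IFIH1 run the other way in some lines.

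With mutant U1 the programme was lower in HG3 and MEC1 and on balance slightly higher in JVM3. The summed level of the 39 genes was 10110 and 10170 CPM in mutant against 9784 and 9743 CPM in wild-type JVM3, a ratio of 1.04. In HG3 it was 2989 and 2930 CPM in mutant against 3889 and 3893 CPM in wild-type cells, a ratio of 0.761. MEC1 had 3463 and 3574 CPM in mutant against 4930 and 5083 CPM in wild-type cells, a ratio of 0.703. The mutant and wild-type libraries did not overlap in any line. In bulk RNA, fewer cells expressing these genes and less of their RNA per cell cannot be told apart.

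Gene by gene, 34 of 39 fell in HG3 (87.2%, against 19.6% of all genes) and 1 rose (18.7% of all genes), with a median log2 fold change of -0.51 against 0.01 over all genes. In MEC1 37 fell (94.9%, against 18.6% of all genes) and 1 rose (18.0%), with a median of -0.59 against 0.00. In JVM3 18 rose (46.2%, against 10.4% of all genes), 5 fell (12.8%, against 12%) and 16 did not pass, with a median of 0.09 against -0.02. Higher genes were 48.8% of all calls in HG3, and 60.7% with upper quartile scaling. Without the first wild-type JVM3 library, fewer of the 39 rose in JVM3 and most of the falls did not pass, and fewer of all genes were called. That fit left 1 library in the group and had a median of 0.10. Both HG3 and MEC1 showed a fall for 33 genes, of which 5 also fell in JVM3 (ISG15, HERC5, HERC6, OAS3 and EPSTI1), 14 rose there and 14 did not pass there. Over the 39 genes the HG3 and MEC1 log2 fold changes, which share no library, had a Pearson correlation of 0.51 (0.59 over the 38 genes with counts in HG3), given as a description since genes of 1 programme are not independent.

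**Figure D2:**
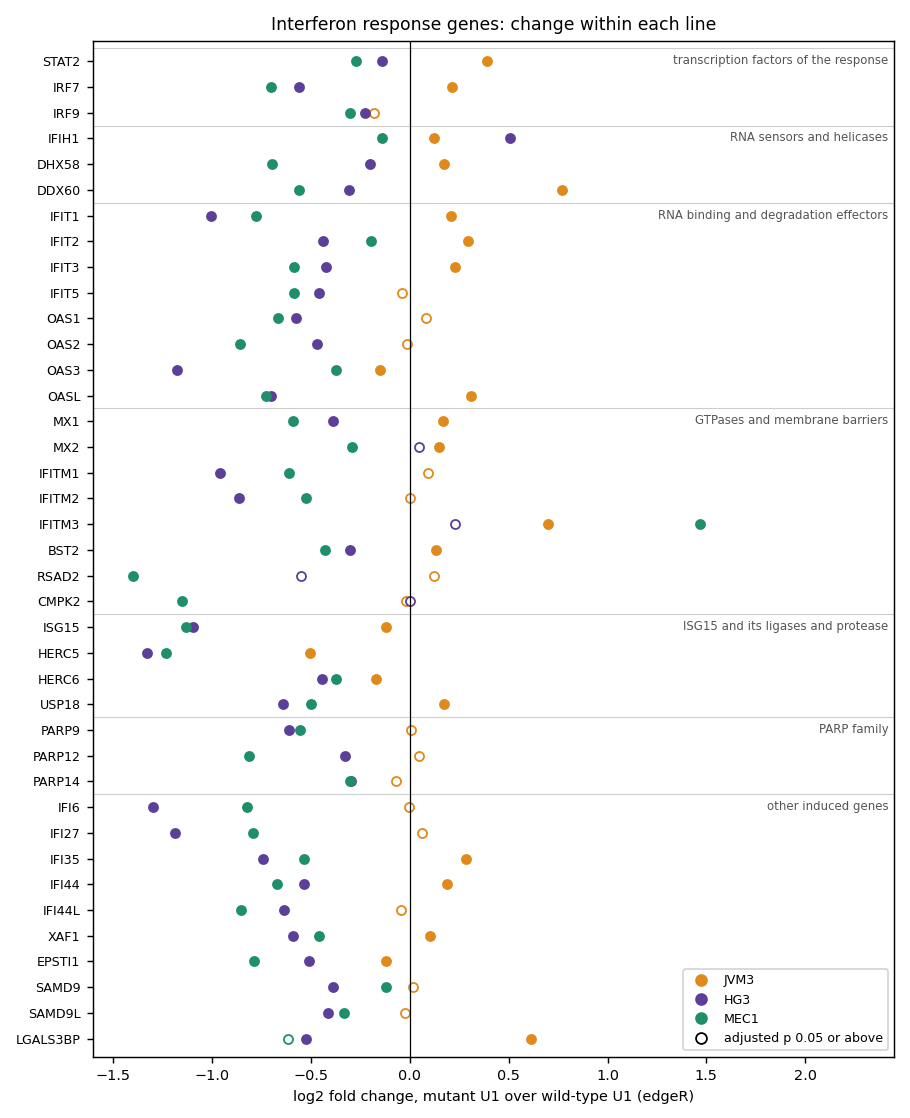
Log2 fold change of mutant over wild-type U1 (horizontal axis) for each of the 39 genes by role (rows), with JVM3 in orange, HG3 in purple and MEC1 in green, and open symbols for an edgeR adjusted p of 0.05 or above. HG3 and MEC1 symbols lie left of 0 for nearly all genes, while 26 of the JVM3 symbols lie right of it.

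Among the transcription factors of the response, STAT2 and IRF7 went opposite ways in the lines and IRF9 did not. STAT2, a subunit of ISGF3, rose in JVM3 (398 and 404 CPM in mutant against 311 and 310 CPM in wild-type cells, log2 fold change 0.39, edgeR adjusted p = 1.07e-11). In HG3 it fell by 0.14 and in MEC1 by 0.27 on the log2 scale. IRF7, the factor that amplifies interferon gene transcription, rose by 0.21 in JVM3 and fell by 0.56 in HG3 and by 0.70 in MEC1. Its MEC1 libraries held 114 and 108 CPM in mutant against 180 and 166 CPM in wild-type cells, with no overlap. IRF9, the DNA-binding partner in ISGF3, had log2 fold changes of -0.18, -0.23 and -0.30 in JVM3, HG3 and MEC1, of which the last 2 passed.

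Of the 3 RNA sensors and helicases, 1 rose in HG3 and all 3 rose in JVM3. IFIH1 (MDA5), the sensor of long double-stranded RNA, rose in HG3 to 167 and 159 CPM in mutant, against 111 and 120 CPM in wild-type cells (log2 fold change 0.51, edgeR adjusted p = 1.28e-11). It was the one gene of the set that rose in HG3, while in JVM3 it rose by 0.12 and in MEC1 it fell by 0.14 on the log2 scale. DDX60, a helicase that supports RNA sensing, had 288 and 301 CPM in mutant against 173 and 178 CPM in wild-type JVM3, a log2 fold change of 0.77 that was the largest rise of the set in that line. The same gene fell by 0.31 in HG3 and by 0.56 in MEC1. DHX58 (LGP2), a regulator of the RNA sensors, rose by 0.18 in JVM3 and fell by 0.20 in HG3 and by 0.70 in MEC1.

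All 8 genes that bind or degrade RNA fell in both HG3 and MEC1, and 4 of them (IFIT1, IFIT2, IFIT3 and OASL) rose in JVM3. IFIT1, which binds foreign RNA caps, had 9.80 and 9.34 CPM in mutant against 18.6 and 20.03 CPM in wild-type HG3, a log2 fold change of -1.005 (edgeR adjusted p = 8.72e-16). In MEC1 it held 10.1 and 10.5 CPM in mutant against 16.7 and 17.0 CPM in wild-type cells, and in JVM3 118 and 121 CPM against 103 and 107 CPM. The mutant libraries were thus the lower ones in HG3 and MEC1 and the higher ones in JVM3. OAS3, which makes the oligoadenylates that activate RNase L, fell in all 3 lines, with 34.2 and 34.7 CPM in mutant against 78.2 and 78.1 CPM in wild-type HG3 (log2 fold change -1.18). Its fall was smaller in MEC1 (-0.37) and in JVM3 (-0.15). OAS2, from the same gene cluster, fell most in MEC1 (-0.86), by 0.47 in HG3, and did not pass in JVM3 (-0.01). The other genes of the group, IFIT2, IFIT3, IFIT5 and OAS1, had log2 fold changes of -0.58 to -0.43 in HG3 and of -0.67 to -0.20 in MEC1.

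The group of GTPases and membrane barrier genes, with which RSAD2 and CMPK2 were listed, was mixed. Of its 8 genes 7 fell in MEC1 and 4 in HG3, and 4 rose in JVM3. MX1 fell to 414 and 414 CPM in mutant HG3, against 551 and 538 CPM in wild-type HG3, and to 573 and 565 CPM in mutant MEC1, against 819 and 823 CPM in wild-type MEC1. It rose by 0.17 on the log2 scale in JVM3, whereas MX2, a GTPase that blocks nuclear entry of viruses, fell in MEC1 (-0.29), rose in JVM3 (0.15) and did not pass in HG3 (0.05). IFITM1, a protein that blocks membrane fusion, had 49.5 and 46.6 CPM in mutant against 97.9 and 89.5 CPM in wild-type HG3, a log2 fold change of -0.96. BST2 (tetherin), which holds budding virus at the cell surface, fell by 0.30 in HG3 and by 0.43 in MEC1 and rose by 0.14 in JVM3. RSAD2 and CMPK2, silent or nearly so in HG3, fell in MEC1, RSAD2 to 6.24 and 8.20 CPM in mutant against 18.1 and 18.1 CPM in wild-type cells (log2 fold change -1.40) and CMPK2 to 14.8 and 15.6 CPM in mutant against 31.3 and 33.4 CPM in wild-type cells (-1.15).

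IFITM3, which blocks entry of enveloped viruses, ran against the set. In MEC1 it had 8.82 and 8.56 CPM in mutant against 3.22 and 2.78 CPM in wild-type cells, a log2 fold change of 1.47 (edgeR adjusted p = 3.17e-12), and it was the one gene of the set that rose there. In JVM3 it had 14.5 and 13.5 CPM in mutant against 8.62 and 8.84 CPM in wild-type cells, a log2 fold change of 0.70. The HG3 groups held only 22 and 19 counts, a ratio of 1.17 with an exact 95% interval from 0.603 to 2.28. Its cluster neighbours on chromosome 11 moved the other way in MEC1, IFITM1 by -0.61 and IFITM2 by -0.52. The IFITM genes are close copies of each other, so the split of reads among them is uncertain.

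ISG15 and the genes that attach or remove it all fell in HG3 and MEC1. HERC5, the main ISG15 ligase, had 120 and 117 CPM in mutant against 169 and 172 CPM in wild-type JVM3, 18.7 and 18.7 CPM against 46.1 and 48.5 CPM in HG3, and 19.1 and 17.9 CPM against 40.3 and 43.3 CPM in MEC1. Mutant libraries were lower in each of the 3 lines with no overlap, at log2 fold changes of -0.50, -1.33 and -1.23. ISG15 itself had 34.1 and 34.6 CPM in mutant against 75.0 and 72.4 CPM in wild-type HG3, and 73.2 and 68.6 CPM in mutant against 153 and 145 CPM in wild-type MEC1. In JVM3 the gap was small, with 481 and 479 CPM in mutant against 541 and 520 CPM in wild-type cells (log2 fold change -0.12, edgeR adjusted p = 0.0111). HERC6, the neighbour of HERC5 and a related ligase gene, fell less, by 0.17 in JVM3, 0.44 in HG3 and 0.37 in MEC1. USP18, the protease that removes ISG15 and damps the receptor, fell by 0.64 in HG3 and by 0.50 in MEC1 and rose by 0.18 in JVM3.

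The 3 PARP genes fell in HG3 and MEC1 and did not pass in JVM3. PARP9, partner of an E3 ligase in interferon signalling, fell by 0.61 in HG3 and by 0.55 in MEC1. PARP12, an RNA-binding PARP, fell by 0.33 in HG3 and by 0.81 in MEC1. PARP14, a mono-ADP-ribosyltransferase, fell by 0.30 in each of these lines.

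Of the 10 remaining genes, 10 fell in HG3 and 9 in MEC1, and 4 rose in JVM3 (IFI35, IFI44, XAF1 and LGALS3BP). IFI6, which protects cells from apoptosis and limits flavivirus replication, had 11.0 and 11.2 CPM in mutant against 26.8 and 28.1 CPM in wild-type HG3, a log2 fold change of -1.30. In MEC1 it had 15.4 and 14.3 CPM in mutant against 26.1 and 24.3 CPM in wild-type cells (-0.82), while in JVM3 165 and 159 CPM in mutant overlapped 164 and 166 CPM in wild-type cells. IFI44L had 388 and 436 CPM in mutant against 678 and 748 CPM in wild-type MEC1 (-0.85) and 76.6 and 79.2 CPM in mutant against 119 and 124 CPM in wild-type HG3 (-0.63). LGALS3BP, a secreted glycoprotein gene, rose in JVM3 (22.0 and 22.0 CPM in mutant against 15.5 and 13.8 CPM in wild-type cells, log2 fold change 0.62), fell by 0.52 in HG3 and, at most 0.862 CPM in MEC1, did not pass there. SAMD9 and SAMD9L, adjacent genes on chromosome 7 that restrict translation in poxvirus infection, fell by 0.39 and 0.41 in HG3 and by 0.12 and 0.33 in MEC1. The other genes of the group (IFI27, IFI35, IFI44, XAF1 and EPSTI1) had log2 fold changes of -1.19 to -0.51 in HG3 and of -0.79 to -0.46 in MEC1.

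Chromosomal neighbours in the set had close fold changes in some clusters and distant ones in others. In the RefSeq order of protein-coding genes, 22 of the 39 lay in 9 clusters with at most 3 other genes between neighbours, among them IFIT2, IFIT3, IFIT1 and IFIT5 on chromosome 10 and OAS1, OAS3 and OAS2 on chromosome 12. Within the IFIT cluster the HG3 log2 fold changes ran from -1.005 (IFIT1) to -0.43 (IFIT3), and within the OAS cluster from -1.18 (OAS3) to -0.47 (OAS2). The HERC pair on chromosome 4 stood at -1.33 for HERC5 and -0.44 for HERC6 in HG3, and the MX pair on chromosome 21 at -0.39 for MX1 and 0.05 for MX2. Closer pairs in HG3 were SAMD9 (-0.39) and SAMD9L (-0.41), IFI44 (-0.53) and IFI44L (-0.63), and IFITM1 (-0.96) and IFITM2 (-0.86). Differences between neighbours were not tested.

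Across the 3 lines, which is the comparison with lines as replicates, 1 of the 39 genes fell and 0 rose (edgeR quasi-likelihood test on summed replicates with the line as a block). Of all genes 1.86% fell and 1.83% rose, so 2.56% of the set was close to the background. At an unadjusted p under 0.05 the set had 17 lower genes and 1 higher, while 4635 of the 21270 genes tested passed in either direction. DESeq2 called 5 lower and 1 higher, against 3.13% of the 41805 genes it tested in either direction. The median log2 fold change was -0.34 against -0.01 over all genes, and 37 of the 39 values were below 0. HERC5 was the gene that fell (log2 fold change -1.02, SE 0.26 over 3 lines, adjusted p = 0.0312, lower in 3 of 3 lines). It no longer passed without HG3 (adjusted p = 0.0506) or without MEC1 (adjusted p = 0.136). IFITM3 came next at 0.95 on the log2 scale (SE 0.36, adjusted p = 0.0521, higher in 3 of 3 lines), and it passed in 10 of the 12 fits that left out 1 library. ISG15 stood at -0.78 (SE 0.33, adjusted p = 0.102) and IFI6 at -0.69 (SE 0.38, adjusted p = 0.167). Leaving out 1 library gave 1 to 3 calls, the 3 without the first mutant MEC1 library, where ISG15 also passed. Without JVM3 the count was 13, all lower, where 1.9% of all genes passed in either direction, and without MEC1 it was 0, where 1.7% passed.

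The response to mutant U1 differed between the lines for 37 of the 39 genes (94.9%, against 32.0% of all genes) in a test of the 3 within-line responses against each other. The exceptions were IRF9 (edgeR adjusted p = 0.741) and HERC6 (adjusted p = 0.0692). Both lack the searched form of the response element core in their RefSeq windows, as do 6 other genes whose responses did differ. The HG3 response was lower than the JVM3 response for 32 genes (10.5% of all genes) and higher for 1 (8.92%). The MEC1 response was lower than the JVM3 response for 35 genes (8.9% of all genes) and higher for 1 (9.51%), and these 2 comparisons share the JVM3 libraries. Of all calls, 46.0% were higher for HG3 against JVM3 (63.2% with upper quartile scaling) and 55.1% for MEC1 against HG3 (40.1%). Between MEC1 and HG3 the split was even, with 8 genes higher in MEC1 (12% of all genes) and 9 lower (9.78%). DDX60 had the widest gap of the RNA sensors, its response in MEC1 being 1.33 log2 units lower than in JVM3. IFI6 stood 1.296 log2 units lower in HG3 than in JVM3, and ISG15 0.98 lower in HG3 and 1.01 lower in MEC1. IFIH1 was the gene with a higher response in HG3 than in JVM3 (by 0.38), and IFITM3 the gene with a higher response in MEC1 (by 0.77).

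The mutant to wild-type ratio of RNU1-1 RNA, given above, was lowest in JVM3, but it was higher in HG3 than in MEC1, whereas the summed ratio of the 39 genes was 0.761 in HG3 and 0.703 in MEC1. The RNU1-1 rise in JVM3 was called by DESeq2 but did not reach an unadjusted p under 0.05 by edgeR. At the junctions called across lines in the whole table, the 720 used more had a median gain of 11.1 points in JVM3, 16.7 points in HG3 and 17.0 points in MEC1. The part of these differences in the response of the interferon genes was not tested.

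Of the interferon genes themselves, IFNB1, IFNL1 and IFNG had their highest levels in JVM3. Of 21 interferon genes listed, 7 passed the filter on low counts, which a gene could pass through 1 line alone. IFNB1, which encodes interferon beta, had 5.05 and 4.71 CPM in mutant against 4.03 and 4.18 CPM in wild-type JVM3. It had 0 counts in mutant HG3, against 2 in wild-type HG3, and at most 0.134 CPM in any MEC1 library. Wild-type JVM3 held 271 IFNB1 counts, 136 times the level of wild-type HG3 with an exact 95% interval from 37.2 to 1120, and 38.0 times the level of wild-type MEC1 (18.2 to 95.3). IFNL1, a type III interferon gene that drives the same targets through another receptor, had 2.96 and 3.00 CPM in mutant against 2.73 and 2.06 CPM in wild-type JVM3, and at most 0.199 CPM in HG3 and MEC1. IFNG, the type II interferon gene, rose in JVM3 (19.97 and 19.3 CPM in mutant against 13.4 and 12.9 CPM in wild-type cells, log2 fold change 0.60, edgeR adjusted p = 2.87e-06). With mutant U1, 0 of the 7 were called across lines by edgeR or DESeq2, and 1 was higher at an unadjusted p under 0.05. That unadjusted threshold was reached by 4635 of the 21270 genes tested, in either direction. In HG3 IFNL1 was called lower on 1 count in mutant against 8 in wild-type cells. IFNA13, chosen by rule as a gene with 1 sign in every line, rested on at most 0.613 CPM.

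**Figure D3:**
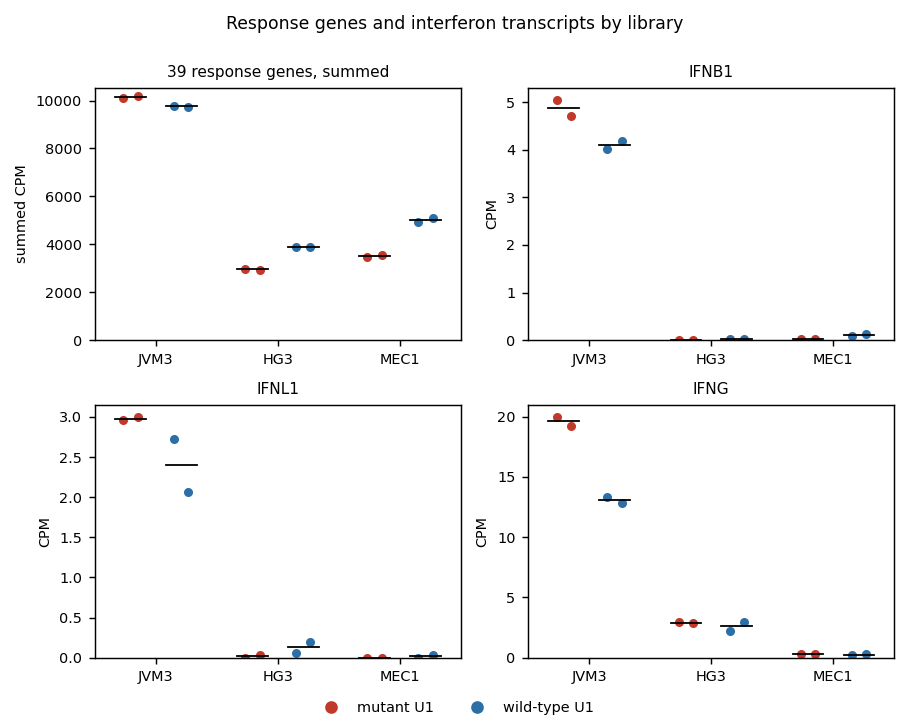
Summed CPM of the 39 response genes and CPM of IFNB1, IFNL1 and IFNG (vertical axes, from 0) in every library, with mutant U1 in red left of wild-type U1 in blue and a black line at each mean of 2. All 4 quantities are highest in JVM3, where IFNB1 reaches 5.05 CPM against at most 0.134 CPM elsewhere.

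Among the receptor and kinase genes, the 2 subunits of the type I receptor fell in HG3 and MEC1. IFNAR1 fell by 0.20 in HG3 and by 0.25 in MEC1, and IFNAR2 by 0.15 and 0.14. In JVM3 IFNAR1 stood at -0.13 and IFNAR2 at -0.15, of like size for IFNAR2, without passing (edgeR adjusted p = 0.0687 and 0.0677). JAK1 rose by 0.20 in HG3 and fell by 0.11 in MEC1, and TYK2 rose by 0.14 in HG3. JAK2, which serves the interferon gamma receptor, fell in each line (log2 fold change -0.40 in JVM3, -0.80 in HG3 and -0.28 in MEC1), and IL10RB, a subunit of the type III receptor, rose in each (0.32, 0.36 and 0.32). Of the 10 receptor and transducer genes 0 passed across lines by edgeR, with 1 higher and 3 lower at an unadjusted p under 0.05 and 1 each way by DESeq2. Over all genes, 4635 of 21270 had such an unadjusted p in either direction, and DESeq2 called 3.13% of 41805.

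Other genes of the pathway were described from lists, and none of them passed across lines by edgeR, where 3.69% of all genes tested did. Over all genes, 4635 of 21270 had an unadjusted p under 0.05 across lines in either direction, and DESeq2 called 3.13% of 41805. Of 30 further interferon-induced effectors, 19 fell and 7 rose in HG3 (19.6% and 18.7% of all genes), with a median of -0.21. In MEC1 21 fell and 3 rose (18.6% and 18.0% of all genes), with a median of -0.27. In JVM3 3 fell and 14 rose (12% and 10.4% of all genes), with a median of 0.11. At an unadjusted p under 0.05 across lines 11 were lower and 2 higher, and DESeq2 called 2 lower and 1 higher. TRANK1 had log2 fold changes of -0.20, -0.99 and -0.58 in JVM3, HG3 and MEC1, and LAMP3, a lysosomal membrane gene, 0.15, 0.43 and 1.93, the last from at most 0.492 CPM. Among 13 sensors and adaptors tested, 7 fell in HG3 (19.6% of all genes) and 6 in MEC1 (18.6%). AIM2, the DNA sensor of the inflammasome, had log2 fold changes of -0.34, -2.11 and -1.13 in JVM3, HG3 and MEC1. TLR7, the endosomal sensor of single-stranded RNA, had -0.125, -1.12 and -0.92, and both genes passed in each line. Across lines 3 of the 13 were lower and 0 higher at an unadjusted p under 0.05, and 2 were lower by DESeq2. The 9 kinase and IRF genes had 0 across lines at an unadjusted p under 0.05 and 0 by DESeq2, IRF8 of the B and myeloid lineages standing at 0.51 in HG3. The 9 negative regulators had 2 each way at an unadjusted p under 0.05 and 0 by DESeq2, with RNF125 falling by 0.69 in HG3 and the phosphatase gene PTPN2 by 0.12 in HG3 and by 0.48 in MEC1. Of the 9 genes that lean towards interferon gamma, 8 fell and 0 rose in HG3 (19.6% and 18.7% of all genes). In JVM3 6 of them fell and 0 rose (12% and 10.4% of all genes). In MEC1 4 of them rose (18.0% of all genes), 2 fell (18.6%) and 3 did not pass. GBP2, a guanylate-binding protein gene, was the one of them with the same sign in every line (-0.38, -1.78 and -1.02 in JVM3, HG3 and MEC1). Across lines 2 of these 9 were lower at an unadjusted p under 0.05 and 1 by DESeq2.

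Use of 6 splice junctions inside response genes differed with mutant U1, the RNA that pairs with the 5' splice site at the start of an intron. The junction table gives each of the 6 groups as 1 column of 15537369 to 17917160 reads, with no replicates. Junctions could be assigned to 28 of the 39 genes, with 443 junctions of which 171 entered the test, grouped by shared 3' splice site (the acceptor). Of these 171, 5 were used more (2.92%, against 2.01% of 35857 junctions tested) and 1 was used less (0.585%, against 0.778%), close to the table as a whole. Coordinates are in hg19, as in the table, and give the exon bases that flank the intron on either side, lower position first.

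In MX2 an unannotated junction on chromosome 21 (42742322 to 42748763, plus strand) took 16.4%, 25% and 30.2% of its acceptor's reads in mutant JVM3, HG3 and MEC1, against 5.28%, 2.67% and 7.87% in the wild-type cells. The mean gain was 18.6 points ± 6.5 (SD, n = 3 lines, diffSpliceDGE adjusted p = 4.27e-05), and no Wilson 95% interval of a mutant column met that of its wild-type column. Its 5' splice site lies 250 bases upstream of that of an annotated junction with the same acceptor, which had 8.92 points less use on average without passing. Another annotated junction with that acceptor had 12.4 points less use on average, also without passing. The 5' splice site of this other junction lies 8340 bases upstream of the called one. In IFI44, of uncertain function, the annotated junction from 79125168 to 79129450 on chromosome 1 took 15.2%, 5.85% and 49.7% in mutant against 7.6%, 1.09% and 24.3% in wild-type JVM3, HG3 and MEC1, a gain of 12.6 points ± 11.2 (SD, n = 3 lines, adjusted p = 0.00236). IFITM2 gained at an annotated junction on chromosome 11 (308889 to 309013), whose 5' splice site lies 451 bases downstream of the competing one, with 18.7%, 15.4% and 20.7% in mutant against 6.1%, 0% and 5.93% in wild-type JVM3, HG3 and MEC1. That gain was 14.3 points ± 1.48 (SD, n = 3 lines, adjusted p = 0.00175). In HG3 it rested on 4 of 26 reads in mutant against 0 of 77 in wild-type cells, which allows a share of up to 3.9%.

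The remaining calls were smaller or less even. IFI44L gained at an unannotated junction on chromosome 1 (79086256 to 79101022), with 11.3%, 14.9% and 0.932% in mutant against 2.94%, 5.98% and 0.156% in wild-type JVM3, HG3 and MEC1, a mean of 6.01 points (adjusted p = 0.000186). SAMD9L lost use of an annotated junction on chromosome 7 (92775353 to 92777507, minus strand), with 0.759%, 1.4% and 17.4% in mutant against 8.83%, 4.14% and 39.1% in wild-type cells, a mean of -10.9 points (adjusted p = 0.0069). An unannotated SAMD9L junction (92765304 to 92766122) reached 5.41%, 7.41% and 4.93% in mutant against 2.3%, 0% and 0.437% in wild-type cells, where 0 of 226 reads in wild-type HG3 allows up to 1.33% (adjusted p = 0.0126). The largest shift that did not pass was at another SAMD9L junction with the first one's acceptor (92775353 to 92776196), with a mean of 16.5 points and an adjusted p of 0.334, and XAF1, a promoter of apoptosis, had 9.2 points more use of the junction from 6661543 to 6663725 on chromosome 17 (adjusted p = 0.0856). By limma on log ratios of junction to competing reads 0 of the 6 passed (adjusted p 0.103 to 0.17, with 37 of 171 junctions at an unadjusted p under 0.05). Leaving out lines, MX2, IFI44 and IFITM2 passed in each of the 3 fits, and IFI44L was not called without JVM3 (adjusted p = 0.0609) or without HG3, where its gain was under 5 points. The SAMD9L loss was not called without JVM3 (adjusted p = 0.279), and the SAMD9L gain without HG3 (adjusted p = 0.132) or without MEC1 (adjusted p = 0.114).

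**Figure D4:**
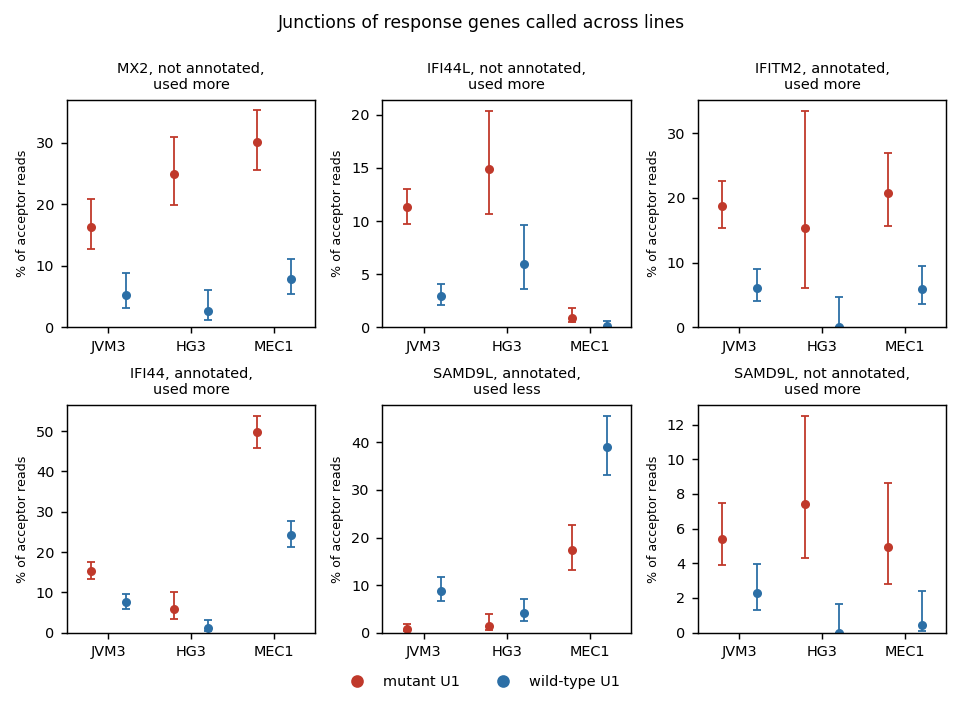
Use of the 6 called junctions in percent of the reads at their acceptor (vertical axes, from 0) in each pooled column, with mutant U1 in red left of wild-type U1 in blue and bars for Wilson 95% intervals, which cover counting error only. The MX2 junction stands at 16.4% to 30.2% in mutant against 2.67% to 7.87% in wild-type columns.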

How the data were processed

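RNA was measured in 12 libraries, 2 technical replicates for each of 3 cell lines with mutant or wild-type U1, extracted with Trizol and made into stranded libraries after ribosomal RNA depletion, per the labels' protocols. The submitters' processing notes name the aligner STAR 2.5.4b, the counter HTSeq 0.9.1 and, as builds, GRCh37 and hg19. Whether counting used strand, and its annotation, are not given in the sources that were used, so overlapping and antisense genes may share reads. The deposited gene table holds raw read counts per gene, and the deposited junction table holds raw read counts per junction in 6 columns, 1 per line and status, taken as pooled. Summary lines of the counter were removed, namely reads outside features (17.72% to 24.93% of entries), ambiguous reads (0.9% to 1.06%) and reads not aligned uniquely (29.02% to 34.92%). Replicates differed by more than counting noise (mean chi-square per gene 2.28 to 5.29 at 1 degree of freedom).

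The members and gene lists were chosen with earlier results of these data known. All tests were fitted on the whole table of 21270 genes with edgeR 4.0.16 (R 4.3.3, TMM factors, robust quasi-likelihood test), with Benjamini-Hochberg adjustment over all of them and a threshold of 0.05. Across lines, replicates were summed and the line was a block. Within lines, between wild-type cells and for differences of response, all 12 libraries entered as 6 groups, so p-values measure technical spread. CPM values were computed from the deposited counts with library totals, without TMM. DESeq2 1.42.0, other scalings, no filter on low counts, left-out libraries and lines, and a replicate block were alternatives. Junctions with at least 20 reads were tested by diffSpliceDGE within groups that share an acceptor. Calls were limited to 1 sign in all 3 lines, a mean shift of 5 points or more and an adjusted p under 0.05. Junctions carried no gene name, so each was assigned to a gene by matching its intron lengths to those of GENCODE release 29.

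Every member is named. From other lists the text names genes called across lines, or else the 2 with the largest mean log2 fold change of 1 sign, plus IFNAR1, IFNAR2, JAK1 and TYK2. Some genes that this rule or the marker lists hold are not reported here. Junctions named are those called and some of the 10 largest others. The tests were also run on simulated counts with planted changes. For the across-line test these were the same in every line, so variation of the response between lines was not checked. Intervals and floors cover counting error only.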

Additional observations from a re-analysis of the deposited data

Results flagged for a closer look

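The response to mutant U1 differed between JVM3, HG3 and MEC1 for 37 genes by the test of the difference itself (edgeR quasi-likelihood test, adjusted over all genes), which 32.0% of all genes passed. The test measures technical spread, since each line had 1 source per U1 status. Among transcription factors, STAT2 had an adjusted p of 4.17e-14 and IRF7 of 4.23e-14. Among RNA sensors and helicases, the adjusted p was 2.22e-19 for DDX60, 2.42e-09 for IFIH1 and 1.06e-10 for DHX58. The genes that bind or degrade RNA had adjusted p-values of 9.03e-17 (IFIT1), 2.28e-14 (IFIT2), 1.17e-16 (IFIT3), 4.8e-07 (IFIT5), 3.09e-15 (OAS1), 2.29e-17 (OAS2), 2.72e-18 (OAS3) and 7.48e-16 (OASL). GTPases and membrane barrier genes had 5.17e-18 (MX1), 1.1e-08 (MX2), 5.93e-16 (IFITM1), 7.37e-07 (IFITM2), 0.000838 (IFITM3) and 1.25e-11 (BST2). RSAD2 and CMPK2, listed with them, had 1.92e-09 and 4.18e-13 (CMPK2 at 0 in HG3).

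In the ISG15 system the adjusted p was 3.44e-20 for ISG15, the smallest of the set, 3.71e-14 for HERC5 and 2.42e-13 for USP18. The PARP genes had adjusted p-values of 6.86e-13 (PARP9), 6.99e-12 (PARP12) and 4.43e-05 (PARP14). The remaining genes had 3.84e-18 (IFI6), 1.32e-08 (IFI27), 3.14e-16 (IFI35), 2.32e-11 (IFI44), 3.63e-06 (IFI44L), 8.68e-13 (XAF1), 9.26e-11 (EPSTI1), 2.62e-06 (SAMD9), 1.43e-06 (SAMD9L) and 1.16e-06 (LGALS3BP).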

How the results depend on the processing

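For the named genes and junctions, a value that passed, as reported or under an alternative, had the same sign in both. Some medians and counts did turn. The median of the 39 genes in wild-type MEC1 against HG3, -0.01, was 0.05 with upper quartile factors, 0.04 and 0.02 without the first and the second wild-type HG3 library and 0.005 without the first wild-type MEC1 library, and upper quartile factors put 1 gene higher in wild-type MEC1 than in JVM3. Across lines 1 of the 39 genes passed, where 3.69% of all genes tested did. RLE or upper quartile factors gave 2 (4.29% and 3.87% of all genes tested), DESeq2 6 (3.13%) and no filter on low counts 25 (6.08%). The 12 unsummed libraries gave 20, where 31.2% of all genes tested passed, since that fit counts technical replicates as independent samples. Without JVM3 the count was 13, without MEC1 0 and without HG3 1 (IFITM3, higher), and leaving out 1 library gave 1 to 3. With limma on log ratios 0 of the 6 junction calls passed. The causes of these shifts were not tested. Every fit without 1 library left 1 library in its group. Within lines, for differing responses and for wild-type contrasts, each such fit also called a smaller share of all genes. A lower count among the 39 in those fits therefore does not show a change particular to the set. Leaving out 1 library gave 37 to 38 genes whose response differs, 31 to 35 calls within HG3, 36 to 37 within MEC1 and 14 to 19 within JVM3, the 14 without the first wild-type library. Wild-type contrasts gave 39 for HG3 against JVM3, 34 to 35 for MEC1 against JVM3 and 36 for MEC1 against HG3.

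The replicate block gave 20 calls across lines on 12 unsummed libraries (20 without it), where 30.6% of all genes passed. It gave 25 within JVM3, 35 within HG3, 38 within MEC1 and 38 for differing responses. Same-numbered libraries had correlated deviations of 0.017 to 0.187 over 15 pairs of groups, not all above 0.1, so the numbers were not taken to pair the libraries, although all 15 were positive. The block moved the share of all genes called within JVM3 to 26.6%, against 22.4% without it, and for differing responses to 37.1%, against 32.0%. Depth limits IFITM3 and RSAD2 in HG3, LGALS3BP in MEC1 and the interferon genes outside JVM3, where counts were low.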
